A study of Homo sapiens with 5 samples.

Results

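The axon guidance ligands and receptors are the secreted and cell-surface proteins that steer growing axons and migrating cells. They were followed here in D54, an established human glioma cell line, with and without silencing of TIP-1. The genes were chosen by symbol: semaphorins, plexins A to D, neuropilins, netrins, UNC5 receptors, DCC, neogenin, Slits, Robos, ephrins and Eph receptors. The rule matched 75 rows of the array, which stood for 72 of the 18417 genes measured, and the row with the highest mean over the 5 arrays was used for each gene. Of the 72, 36 were ligands and 34 receptors. UNC50, a Golgi protein, and UNC5CL, a relative of the UNC5 family, were matched by their symbols and are not guidance receptors. They differed by 0.05 and -0.07 log2 units and are counted among the 72.

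The groups were 3 arrays of D54 cells transfected with TIP-1 shRNA, each with a different shRNA, and 2 arrays of D54 cells transfected with a control shRNA, from independent clones. No array was a technical repeat, so an shRNA sequence, its clone and its array cannot be told apart. TIP-1, the product of TAX1BP3, is a small protein made of a PDZ domain, a fold that binds the tails of other proteins. All values are log2 signals as deposited, and each difference is the mean of the TIP-1 shRNA arrays less the mean of the controls, in log2 units. EPHB2 and SEMA4C were not analysed here.

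Guidance cues act in pairs with their receptors. Slits signal through Robos, netrins through DCC, neogenin and UNC5 receptors, semaphorins through plexins with neuropilins as co-receptors, and ephrins through Eph receptor tyrosine kinases. Many of these signals act on the actin cytoskeleton, and in glioma several of them have been linked to invasion and vessel growth. The tails of B-type ephrins and B-type plexins carry PDZ-binding motifs.

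SLIT2 and SLIT3 each host a microRNA of the miR-218 family inside the gene, and miR-218 is known to repress ROBO1 and ROBO2, the Slit receptors. The arms are shown because this loop joins ligand and receptor genes in the set. They are from RefSeq (GRCh38.p14), 5′ to 3′, with the seed (bases 2 to 8) in capitals.
hsa-miR-218-5p: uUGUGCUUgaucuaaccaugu
hsa-miR-218-1-3p: aUGGUUCCgucaagcaccaugg
hsa-miR-218-2-3p: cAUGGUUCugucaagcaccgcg
The 5p arm is the same at both loci, on the plus strand at chr4:20528299-20528319 within SLIT2 and on the minus strand at chr5:168768211-168768231 within SLIT3. The 3p arms differ and have different seeds.

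The regions before the start sites of SLIT2 and UNC5C are shown because these were the guidance genes with the lowest and the highest mean difference. Each is 250 bases long, from RefSeq (GRCh38.p14), 5′ to 3′ and ending just before the start site. SLIT2 is at chr4:20251655-20251904 on the plus strand and UNC5C at chr4:95548974-95549223 on the minus strand. Capitals mark matches on either strand to the TATA box, searched as TATAAA and in its variant form as TATATA. They also mark the GC box, searched as GGGCGG, and the motif of TCF/LEF, the factors that beta-catenin binds, searched as CTTTGA. None of these matches overlapped another.
SLIT2: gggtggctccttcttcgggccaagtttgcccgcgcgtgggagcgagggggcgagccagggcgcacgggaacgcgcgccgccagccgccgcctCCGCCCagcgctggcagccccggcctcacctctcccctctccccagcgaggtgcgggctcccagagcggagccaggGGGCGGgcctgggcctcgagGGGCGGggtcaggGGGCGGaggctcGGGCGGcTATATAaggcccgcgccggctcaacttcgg
UNC5C: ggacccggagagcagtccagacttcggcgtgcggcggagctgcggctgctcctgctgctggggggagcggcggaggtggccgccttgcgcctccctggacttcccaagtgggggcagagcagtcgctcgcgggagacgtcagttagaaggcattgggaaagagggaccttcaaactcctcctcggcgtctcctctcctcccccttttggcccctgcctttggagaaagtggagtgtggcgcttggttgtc
The SLIT2 region held 5 GC boxes and 1 TATA box match, which began 30 bases before the start site (position -30). UNC5C had no match to any of the 3 motifs, which says only that these letters are not in this window. A GC box was found in 70.2% of 94 regions of 61 guidance genes and in 42.6% of all 35116 regions of this length. The TATA box letters were found in 5.32% and 12.8%, and CTTTGA in 10.6% and 11.2%. A match is a description of the letters and not a binding site.

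TIP-1 itself was lower in every silenced array. The TAX1BP3 row, which also carries the read-through symbol P2RX5-TAX1BP3, read 9.81, 9.61 and 9.55 with shRNAs 1, 2 and 3, against 12.05 and 12.10 in the controls (difference -2.42, SE 0.10, limma adjusted p = 0.011). The call was lost without shRNA 2 (difference -2.39, limma adjusted p = 0.129). It was also lost without control 1 or control 2, with differences of -2.45 and -2.39. Lower quartiles of all rows were 6.42, 6.40 and 6.35 with TIP-1 shRNA and 6.45 and 6.44 in the controls, and upper quartiles 9.79, 9.80 and 9.83 against 9.77 and 9.77, so the silenced arrays had a wider spread of signals. VIM, a filament protein of glioma cells, read 13.93 ± 0.088 with TIP-1 shRNA (SD, n = 3) and 13.98 ± 0.045 in the controls (SD, n = 2). GFAP, the astrocyte filament protein, read 8.02 ± 0.14 with TIP-1 shRNA and 8.09 ± 0.075 in the controls. The 10 glioma and astrocyte markers had a median difference of -0.058, with 4 above 0 and 6 below. SOX9 was above both controls in all silenced arrays (difference 0.26) and SLC1A3 below both (-0.23), and none of the 10 passed the test. The table holds no detection call, so no gene could be called absent. The median difference was -0.26 for 5 neuron markers, -0.11 for 6 oligodendrocyte markers, -0.03 for 5 endothelial markers, -0.08 for 5 microglia and macrophage markers and 0.01 for 4 epithelial markers. Among the neuron markers, SNAP25 and RBFOX3 differed by -0.28 and -0.30, with all silenced arrays below both controls. SYT1 differed by -0.26 and was low only with shRNA 3, at 7.35 against 8.67 and 8.66 with shRNAs 1 and 2. MAP2 and STMN2 differed by 0.09 and 0.05. Among the epithelial markers, EPCAM differed by -0.53, with all silenced arrays below both controls, and KRT8, KRT18 and CDH1 by 0.12, -0.06 and 0.08. None of the 25 markers of these lists passed the test, and their part in the results below was not tested.

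No guidance gene passed the test. After Benjamini-Hochberg adjustment over all 33297 rows, 0 of 72 were higher and 0 lower with TIP-1 shRNA (limma, adjusted p from 0.707 to 0.995), against 0% of all rows called higher and 0.003% called lower. At an unadjusted p under 0.05 there was 1 higher gene, UNC5C, against 3.08% of all genes. Lower at that level were 4 genes, SLIT2, NRP1, SEMA4A and SEMA5B, against 2.94% of all genes. The differences ran from -1.29 (SLIT2) to 0.72 (UNC5C), with 34 above 0, or 47.2% against 47.6% of all genes, and 38 below, and their median was -0.01, the same as the -0.01 over all genes. In bulk RNA, fewer cells that express a gene and less of its RNA per cell cannot be told apart.

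All 3 silenced arrays lay above both controls for 5 guidance genes, UNC5C, ROBO1, NEO1, EPHA2 and SEMA6B, which is 6.94% of the 72 against 12.5% of all genes. They lay below both controls for 11, or 15.3% against 14.1% of all genes. These were SLIT1, SLIT2, NRP1, SEMA3E, SEMA4A, SEMA4G, SEMA5B, SEMA6D, PLXNA4, EPHA1 and EFNB1. Both shares were near or below the background. The split of 5 above and 11 below was 7 and 7 after quantile normalization and 13 and 6 after median centring. Leaving out shRNA 2, shRNA 3, control 1 or control 2 gave 10, 15, 12 and 21 above, and leaving out shRNA 1 or control 1 gave 21 and 25 below. Fewer arrays separate more easily by construction.

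**Figure D1:**
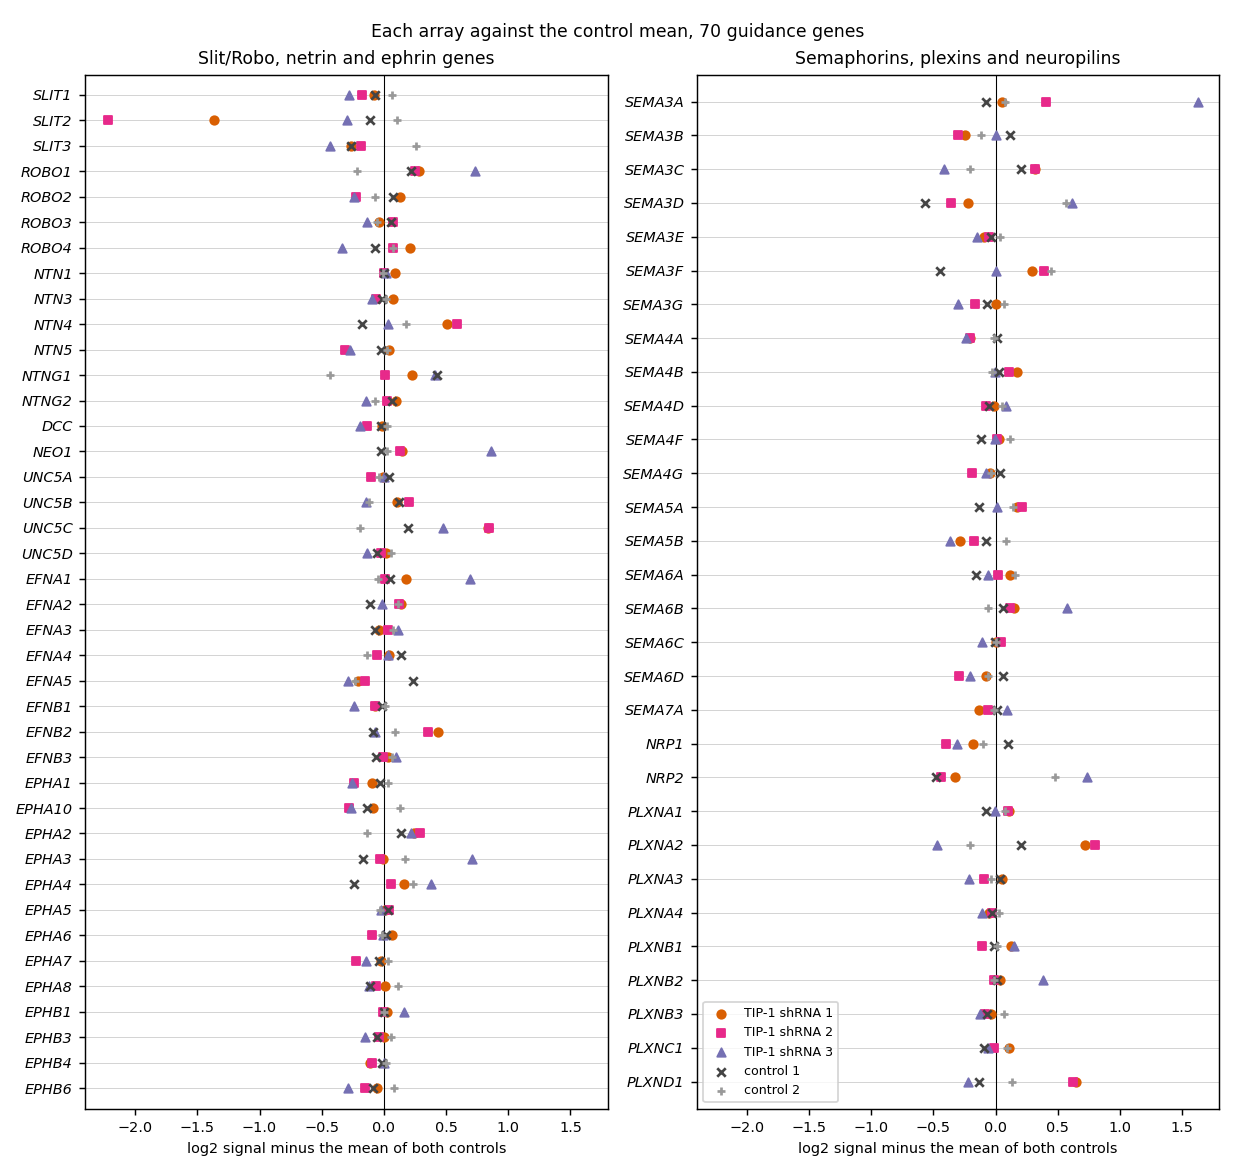
Log2 signal of each array minus the mean of both controls (x axis) for the 70 guidance ligands and receptors, one gene per line, with TIP-1 shRNAs 1 to 3 as filled symbols and the controls as crosses. Most genes sit close to 0, SLIT2 reaches -2.22 with shRNA 2, and SEMA3A reaches 1.63 with shRNA 3.

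The mean differences of the Slit ligands were below 0 and that of the Slit receptor ROBO1 above 0, but none of the 7 genes passed the test. SLIT2, a secreted repellent that also limits the migration of several cell types, read 9.29, 8.44 and 10.37 with shRNAs 1, 2 and 3, against 10.55 and 10.77 in the controls. The groups did not overlap, and the silenced arrays differed among themselves by 1.93 log2 units, from far below the controls with shRNA 2 to just below them with shRNA 3. The difference was -1.29 (SE 0.51, 95% interval -2.54 to -0.05, limma adjusted p = 0.707). It was -0.83 without shRNA 2 and -1.80 without shRNA 3.

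The other Slit genes showed smaller differences in the same direction. SLIT1 read 7.37, 7.28 and 7.17 with TIP-1 shRNA, against 7.38 and 7.52 in the controls, a difference of -0.18 (SE 0.10). SLIT3 read 7.92, 7.99 and 7.75, against 7.92 and 8.44, a difference of -0.29 (SE 0.17). For SLIT3 the groups overlapped, since shRNAs 1 and 2 lay between the controls, which were 0.52 apart. Leaving out control 1 gave -0.55 for SLIT3 and leaving out control 2 gave -0.031, close to 0. SLIT1 differed by -0.11 without control 2. Both had an adjusted p above 0.7.

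ROBO1, the main Slit receptor of many migrating cells, read 10.86, 10.83 and 11.32 with shRNAs 1, 2 and 3, against 10.80 and 10.37 in the controls. All silenced arrays were higher than both controls, by only 0.03 log2 units between shRNA 2 and control 1, and shRNA 3 was highest. The difference was 0.42 (SE 0.20, 95% interval -0.06 to 0.90, adjusted p = 0.707). It was 0.26 without shRNA 3 and 0.20 without control 2, and the groups overlapped after quantile normalization. ROBO2, which shares the Slit ligands, differed by -0.11 (SE 0.14), ROBO3, a receptor of crossing axons, by -0.03 (SE 0.10) and ROBO4, the endothelial Robo, by -0.02 (SE 0.17). The differences of ROBO3 and ROBO4 changed sign with the scaling.

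The rows of the miR-218 precursors, whose arms are printed above, overlapped between groups. MIR218-1, within SLIT2, read 5.78, 5.71 and 5.88 with TIP-1 shRNA and 5.86 and 6.05 in the controls, a difference of -0.17 (SE 0.10, limma adjusted p = 0.724). MIR218-2, within SLIT3, read 6.61, 6.40 and 6.45 against 6.62 and 6.50, a difference of -0.07 (SE 0.10). MIR218-1 was lowest with shRNA 2, as SLIT2 was. The values of MIR218-1 all lay under 6.42, the lower quartile of row means, where a difference may not be detectable. MIR218-2 was also lowest with shRNA 2, where SLIT3 was highest among the silenced arrays. The mature microRNA was not measured.

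**Figure D2:**
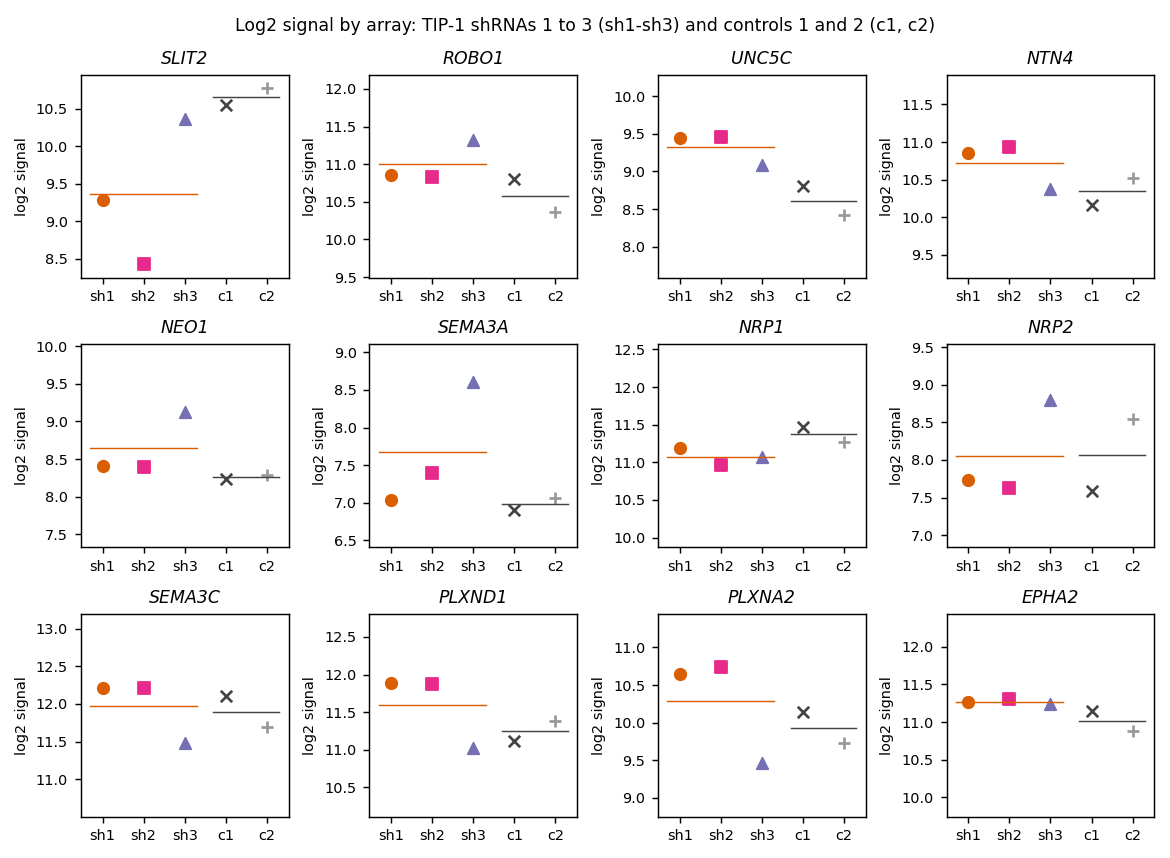
Log2 signal (y axis, the same span in every panel) of 12 guidance genes in TIP-1 shRNAs 1 to 3 and controls 1 and 2, with lines at the group means. shRNAs 1 and 2 read alike for most of them, and shRNA 3 stands apart for SLIT2, SEMA3A, NEO1, NRP2, NTN4, SEMA3C, PLXND1 and PLXNA2. For SLIT2, shRNAs 1 and 2 also differ from each other, by 0.85.

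Among the netrins and their receptors, UNC5C had the smallest unadjusted p of all guidance genes. UNC5C is a receptor that turns netrin signals into repulsion and that can promote cell death when no netrin is bound. It read 9.45, 9.46 and 9.08 with shRNAs 1, 2 and 3, against 8.80 and 8.42 in the controls, so all silenced arrays were higher than both controls, and shRNA 3 was nearest to them. The difference was 0.72, or 1.65-fold (SE 0.17, 95% interval 0.31 to 1.12, unadjusted p = 0.00481 in limma, adjusted p = 0.707). Leaving out 1 array gave differences from 0.53 (without control 2) to 0.91 (without control 1).

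NEO1, neogenin, a receptor for netrins and repulsive guidance molecules, was also higher in every silenced array, at 8.41, 8.40 and 9.12 with shRNAs 1, 2 and 3, against 8.24 and 8.29 in the controls. Most of its difference of 0.38 (SE 0.23, adjusted p = 0.724) lay in shRNA 3, and it was 0.14 without that array. DCC, the receptor for attraction to netrin, differed by -0.11 (SE 0.09). The remaining UNC5 receptors, UNC5A, UNC5B and UNC5D, differed by -0.04, 0.05 and -0.05.

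Of the ligands, NTN1, the classical netrin, was nearly the same in all arrays, at 8.82, 8.73 and 8.75 with TIP-1 shRNA and 8.73 and 8.73 in the controls (95% interval of the difference -0.16 to 0.23). NTN4, a laminin-related netrin of basement membranes, read 10.85, 10.93 and 10.38, against 10.16 and 10.52. Its groups overlapped because shRNA 3 lay between the controls, while shRNAs 1 and 2 were above both. The difference was 0.38 (SE 0.20, adjusted p = 0.713). It was 0.20 without control 1 and 0.56 without control 2. NTN3, NTN5 and the membrane-anchored NTNG1 and NTNG2 differed by -0.03, -0.18, 0.21 and -0.01, and the NTNG1 controls were 0.86 apart, at 8.42 and 7.56.

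The 30 genes of the semaphorin system were split evenly, with 15 above 0 and 15 below, a median of 0.00, and none past the test. NRP1, a co-receptor for class 3 semaphorins and for VEGF, read 11.19, 10.97 and 11.06 with shRNAs 1, 2 and 3, against 11.47 and 11.27 in the controls. All silenced arrays were lower than both controls. The difference was -0.30 (SE 0.11, 95% interval -0.56 to -0.03, limma adjusted p = 0.707), or -0.20 without control 1.

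NRP2, the second neuropilin, varied far more within the groups than between them. It read 7.73, 7.62 and 8.79 with TIP-1 shRNA, against 7.58 and 8.54 in the controls, so shRNA 3 and control 2 were high and the other 3 arrays low. A dimmer NRP2 row was also highest with shRNA 3 and next highest in control 2, at 7.19, 6.89 and 8.59 against 7.10 and 7.75, but control 2 was less high in it. SEMA3D, a secreted semaphorin that acts through neuropilins, was high in the same arrays, at 7.62, 7.48 and 8.46 against 7.27 and 8.41. Its controls were 1.14 log2 units apart, the only guidance gene where they differed by at least 1, against 0.478% of all genes. The differences of both genes were near 0, at -0.01 for NRP2 and 0.01 for SEMA3D.

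Among the secreted semaphorins, SEMA3A, which collapses growth cones through NRP1 and A-type plexins, had the highest difference. It read 7.04, 7.39 and 8.61 with shRNAs 1, 2 and 3, against 6.91 and 7.07 in the controls. The groups overlapped, because shRNA 1 lay between the controls and shRNA 3 alone was more than 1 log2 unit above their mean. The difference was 0.69 (SE 0.44, adjusted p = 0.729), and 0.23 without shRNA 3. SEMA3C, another neuropilin ligand, read 12.21, 12.21 and 11.49, against 12.11 and 11.69, so shRNAs 1 and 2 were above both controls and shRNA 3 below both. SEMA3B, SEMA3E, SEMA3F and SEMA3G differed by -0.18, -0.10, 0.23 and -0.16.

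Membrane-bound semaphorins differed little. SEMA4A, which binds B-type plexins and PLXND1, read 7.53, 7.53 and 7.49, against 7.75 and 7.71 (difference -0.22, SE 0.08). SEMA5B, which has thrombospondin repeats, read 7.96, 8.07 and 7.88, against 8.16 and 8.32 (difference -0.27, SE 0.10). In both genes every silenced array was lower than both controls and the adjusted p was 0.707. SEMA6B, a ligand of A-type plexins, was higher by 0.28 (SE 0.16), mainly in shRNA 3, at 8.98 against 8.47 and 8.35 in the controls.

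SEMA4D, the ligand of PLXNB1, differed by -0.0034 (95% interval -0.23 to 0.22). A dimmer SEMA4D row differed by -0.33 (SE 0.13, unadjusted p = 0.041 in limma, adjusted p = 0.707), so the rows of this gene disagreed. In the dimmer row all silenced arrays were lower than both controls, at 7.60, 7.63 and 7.46 against 7.71 and 8.07. The controls of that row were 0.35 apart. SEMA7A, a lipid-anchored semaphorin, differed by -0.03 (95% interval -0.27 to 0.20) and its receptor PLXNC1 by 0.01. The others, SEMA4B, SEMA4F, SEMA4G, SEMA5A, SEMA6A, SEMA6C and SEMA6D, lay between -0.19 and 0.13.

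Plexins, the signalling receptors of semaphorins, had a median difference of 0.06 over 9 genes. PLXND1, which binds SEMA3E directly, read 11.89, 11.87 and 11.03 with shRNAs 1, 2 and 3, against 11.11 and 11.38 in the controls. PLXNA2, which binds SEMA6A, read 10.65, 10.74 and 9.46, against 10.14 and 9.73. In both genes shRNAs 1 and 2 were above both controls and shRNA 3 was below both, as for SEMA3C. The mean differences, 0.35 (SE 0.28) and 0.35 (SE 0.39), therefore describe no silenced array well. PLXNA1, PLXNA3, PLXNA4, PLXNB1, PLXNB2 and PLXNB3 lay between -0.08 and 0.14, and the highest single value was PLXNB2 with shRNA 3, 0.38 above the control mean.

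Ephrins and Eph receptors showed the narrowest range, with all 21 genes between -0.22 and 0.29 and none past the test. EPHA2, a receptor often abundant in glioma, read 11.26, 11.30 and 11.23 with TIP-1 shRNA, against 11.15 and 10.88 in the controls, a difference of 0.25 (SE 0.11, adjusted p = 0.707). Its silenced arrays lay within 0.07 of each other, all higher than both controls, and the controls differed by more, 0.27. The difference was 0.12 without control 2. EPHA1 read 7.30, 7.15 and 7.14, against 7.36 and 7.43, a difference of -0.20 (SE 0.09).

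EFNA1, the lipid-anchored ligand of EPHA2, read 8.78, 8.61 and 9.29, against 8.65 and 8.55, so shRNA 3 stood out and shRNA 2 lay between the controls (difference 0.29, SE 0.20). EPHA3, named after its values were seen like EFNB2, was likewise high with shRNA 3 alone, at 7.37, against 6.66 and 6.63 with shRNAs 1 and 2 and 6.49 and 6.83 in the controls. EFNB2, the transmembrane ligand of EPHB4 in vessels, read 8.55 and 8.46 with shRNAs 1 and 2 and 8.04 with shRNA 3, against 8.02 and 8.20. EPHB4 differed by -0.07 (95% interval -0.27 to 0.13), and EPHB1, EPHB3 and the kinase-inactive EPHB6 by 0.06, -0.06 and -0.17. EFNA5 differed by -0.22, EFNB1 by -0.13, and EFNA2, EFNA3, EFNA4 and EFNB3 by 0.08, 0.04, 0.01 and 0.04. EPHA4, EPHA5, EPHA6, EPHA7, EPHA8 and the kinase-inactive EPHA10 lay between -0.21 and 0.20.

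The silenced arrays were not alike across the guidance genes. shRNA 1 was above both controls for 28 genes (38.9% against 32.2% of all genes) and below both for 15 (20.8% against 31.2%). shRNA 2 was above both for 20 (27.8% against 30.8%) and below both for 30 (41.7% against 37.7%). shRNA 3 was above both for 20 (27.8% against 35.5%) and below both for 35 (48.6% against 41.9%). More guidance genes were thus low with shRNAs 2 and 3 than with shRNA 1, as were more of all genes. The medians over all rows were 7.95, 7.90 and 7.88 with shRNAs 1, 2 and 3 and 7.96 and 7.98 in the controls. These counts were made on the values as deposited and were not repeated with other scalings.

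Large departures from the control mean were few. At least 1 log2 unit above it was SEMA3A with shRNA 3 (1.39% against 0.548%) and no gene with shRNA 1 (0.168% of all genes) or shRNA 2 (0.163%). At least 1 below it was SLIT2 with shRNA 1 (1.39% against 0.25%) and with shRNA 2 (against 0.271%), and no gene with shRNA 3 (0.147%). At least 0.5 away in either direction were 5 genes with shRNA 1 (6.94% against 2.08%), 5 with shRNA 2 (against 2.66%) and 8 with shRNA 3 (11.1% against 5.23%). The mean difference reached 0.5 for 3 genes, SLIT2, UNC5C and SEMA3A, which is 4.17% against 1.34%.

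Silenced arrays also differed among themselves. shRNA 3 was at least 0.5 log2 units above the mean of shRNAs 1 and 2 for 7 genes, EFNA1, EPHA3, NEO1, NRP2, SEMA3A, SEMA3D and SLIT2, or 9.72% against 4.47% of all genes. It was at least 0.5 below for 4, NTN4, PLXNA2, PLXND1 and SEMA3C, or 5.56% against 1.61%. shRNAs 1 and 2 differed by that much for 1 gene, SLIT2, which is 1.39% against 0.434%. The controls differed by at least 0.5 for 5 genes, SEMA3D, NRP2, SEMA3F, NTNG1 and SLIT3, or 6.94% against 3.21%. This limit was set after the values had been seen, each shRNA has 1 array, and these counts carry no test.

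**Figure D3:**
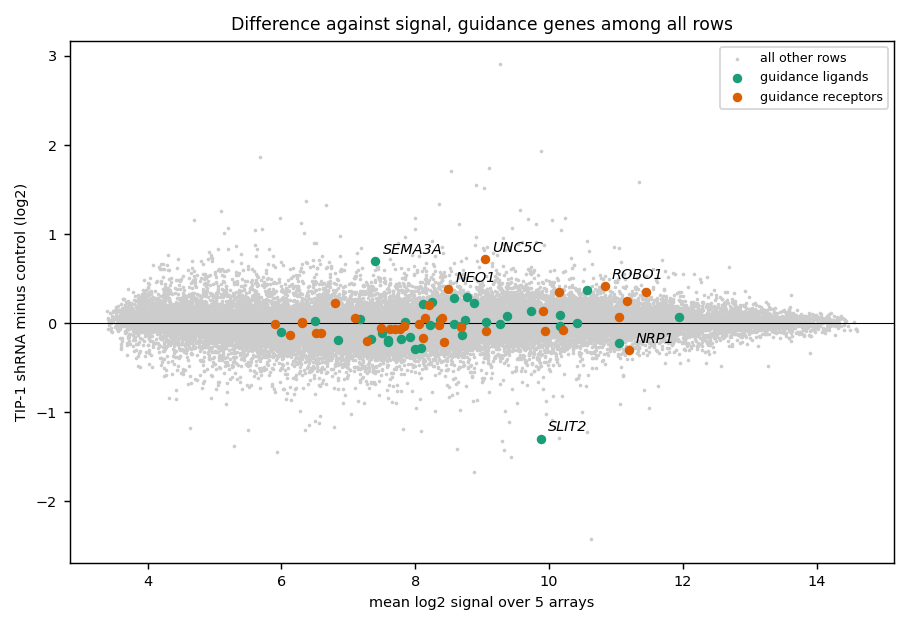
TIP-1 shRNA minus control (y axis, log2 units) against the mean log2 signal over the 5 arrays (x axis) for guidance ligands and receptors, with all other rows in grey. The guidance genes run from SLIT2 at -1.29 to UNC5C at 0.72, within the range of all rows, -2.42 to 2.90.

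Signal moved with direction among the guidance genes as it did among all genes. The 45 guidance genes above the median signal of all rows had a median difference of 0.04, with 5 genes all above both controls (11.1% against 16.2% of all genes of that signal) and 4 all below (8.89% against 9.87%). The 27 genes below that signal had a median of -0.06, with 0 all above (against 6.75%) and 7 all below (25.9% against 20.5%). Over all genes the medians were 0.02 and -0.05. SEMA3E, PLXNC1, EPHA5, EPHA6 and EPHA7, 6.94% of the guidance genes against 13.9% of all genes, had a mean signal under 6.42, the lower quartile of row means, where a difference may not be detectable.

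Of 105 textbook ligand and receptor pairs, 100 had both genes measured, and many share a gene. As deposited, in 0 pairs were both partners higher in all silenced arrays, and in 0 both lower. The ligand was lower and the receptor higher in all silenced arrays in 2 pairs, SLIT1 with ROBO1 and SLIT2 with ROBO1. The opposite held in 1 pair, SEMA6B with PLXNA4. None of these 3 pairs remained after quantile normalization, where ROBO1, SLIT1 and PLXNA4 overlapped between groups, and the SEMA6B pair was also lost after median centring. Rescaling also brought in other pairs. EFNA1 with EPHA2, and NTN1 with NEO1 and with UNC5C, were higher together after quantile normalization and after median centring. EFNB1 and EPHB4 were both lower after quantile normalization. Opposite pairs appeared too, such as EFNA1 higher with EPHA1 lower after either scaling. Of all genes, 12.5% lay above and 14.1% below both controls as deposited, and no share was computed for pairs. UNC5C differed by 0.72 beside 0.04 for its ligand NTN1, and NRP1 by -0.30 beside 0.69 for SEMA3A. NTN4 and NEO1 both differed by 0.38, but NTN4 was 0.51, 0.59 and 0.03 above the control mean with shRNAs 1, 2 and 3, and NEO1 0.15, 0.13 and 0.86. SEMA3C and PLXND1, in contrast, were high and low in the same silenced arrays, at 0.32, 0.31 and -0.41 and at 0.65, 0.63 and -0.22. Their controls went in opposite directions, with control 2 less control 1 at -0.41 for SEMA3C and 0.27 for PLXND1. PLXNA2 had the same pattern over the silenced arrays, at 0.72, 0.80 and -0.47, so it was not particular to this pair.

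**Figure D4:**
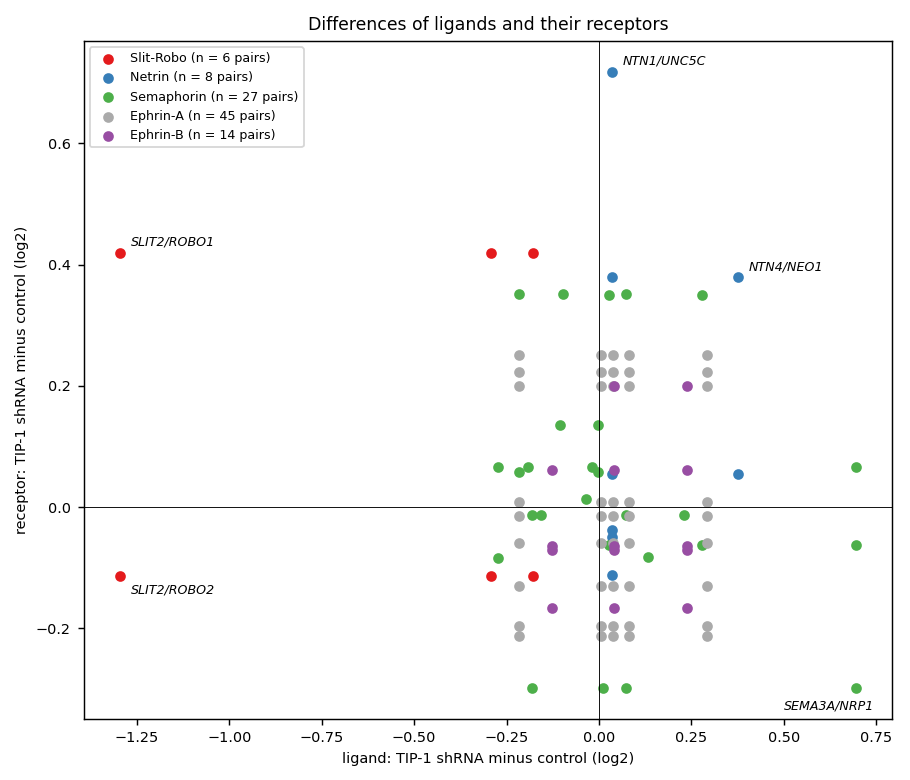
Difference of each ligand (x axis) and of its receptor (y axis), TIP-1 shRNA minus control in log2 units, for 100 pairs coloured by family, where pairs that share a gene line up in rows or columns. SLIT2 with ROBO1 lies at the upper left, with the ligand at -1.29 and the receptor at 0.42.

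Of the intracellular genes that carry guidance signals, 57 were measured, with a median difference of -0.0042, and none passed the test. Their differences ran from -0.53 (PTPN13, a PDZ-containing phosphatase) to 0.32. For PTPN13 the groups overlapped and the controls were far apart. It read 6.12, 6.12 and 6.735 with shRNAs 1, 2 and 3, against 7.51 and 6.20 in the controls (SE 0.40). At an unadjusted p under 0.05, 3 were higher (5.26% against 3.08% of all genes) and 3 lower (5.26% against 2.94%). All silenced arrays were above both controls for 6 of the 57, or 10.5% against 12.5% of all genes. They were below both for 6, or 10.5% against 14.1% of all genes. Higher were CRMP1, a mediator of semaphorin 3A signals (8.95, 8.97 and 8.92 with TIP-1 shRNA against 8.66 and 8.60 in the controls, difference 0.32), the PDZ adaptor SDCBP (0.22) and DOCK1 (0.21), which acts in cell migration. Lower were the kinase ABL1, which acts downstream of Robo (7.92, 7.82 and 7.70 against 8.33 and 8.07, difference -0.39), the actin-elongating ENAH (-0.33) and ARHGEF12 (-0.21), which binds B-type plexins. For each of these 6 the groups did not overlap, and the limma adjusted p was 0.707.

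Further cues and co-receptors numbered 28, with a median of -0.06, 4 genes all above both controls (14.3% against 12.5% of all genes) and 11 all below both (39.3% against 14.1%), and none past the test. Of these 11, FLRT1, FLRT3, LRRC4, CNTN2, KDR and DSCAM were below the median signal of all rows. There, 20.5% of all genes lay below both controls. RGMA, RGMB, DRAXIN, MET and RTN4 were above that signal, where the share was 9.87%. The counts of this list were not repeated with other scalings. The adhesion protein L1CAM, a co-receptor for SEMA3A, was higher by 0.41 (SE 0.16) and the leucine-rich repeat membrane protein LRIG3 by 0.25 (SE 0.093). MET, a receptor that associates with B-type plexins, was lower by 0.26 log2 units (difference -0.26, SE 0.08), and the netrin modulator DRAXIN differed by -0.25 (SE 0.10). All 4 had an unadjusted p under 0.05 and an adjusted p of 0.707 in limma. At that unadjusted level, 2 of the 28 were higher (7.14% against 3.08% of all genes) and 2 lower (7.14% against 2.94%).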

How the data were processed

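RNA from 5 D54 samples was measured on Affymetrix whole-transcript arrays, 1 array each. Per the labels' design text, the authors summarised them in Affymetrix's Exon Array Computational Tool. The sources used here give no version, background correction or normalization. The deposited values are log2 signals from 3.27 to 14.7 per transcript cluster, and were used as deposited. The design text names an exon array, but the rows matched the annotation of the gene-level array. Of 33297 rows, 19460 had 1 symbol, 1754 several and 12083 none. All 72 guidance symbols were the same by gene identifier in GRCh38.p14. Array Pearson correlations ran from 0.991 to 0.997.

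Group means were compared in R 4.3.3 by limma 3.58.1 (eBayes after lmFit, two-sided, Benjamini-Hochberg over all rows, threshold 0.05, 95% intervals). p-values weigh each difference against the spread between arrays, in which clone, shRNA and array cannot be told apart. The fit draws the spread of each row towards that of all rows, and the number of arrays limits the precision. On 10 simulated data sets with 200 changed rows, this comparison found 2.2% of the changes of 0.5 log2 units, 69.4% at 1 log2 unit and 95.8% at 2, with 6.4 false calls per set. So many changed rows loosen the adjusted threshold, and in the data only 1 row was called. These shares therefore do not measure how often a change of that size in a guidance gene would be found here. Genes, lists and pairs were chosen with earlier results of these data known. Named were the 10 genes per direction with the smallest p among those whose groups did not overlap, genes with an array 1 log2 unit from the control mean or controls that far apart, core cues and receptors, and their partners; the remaining genes were named to account for every gene. Alternatives were quantile normalization, median centring, bright rows only, a trended robust variance, array weights, a replicate block, the mean of a gene's rows and leaving out each array.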

Additional observations from a re-analysis of the deposited data

How the results depend on the processing

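No guidance gene was called (0 of 72, or 0 of 45 with bright rows only) under any alternative run, and among the named genes the lowest adjusted p was 0.136, for SLIT2 with the replicate block (difference -1.80). Called rows over the whole table were 1 as deposited, 2 with array weights, 15 with the replicate block, which leaves shRNA 3 without a partner, and 0 to 6 with any 1 array omitted. Where a control was omitted, the remaining one was taken to vary as the silenced arrays do. Same-numbered arrays deviated together at r = 0.049 (number 1) and -0.053 (number 2), and were therefore not treated as pairs. TAX1BP3 differed by -2.50 to -2.37 when 1 array was left out. Guidance genes above both controls numbered 13 with median centring, which raises every difference by 0.06, and 6 to 21 when 1 array was left out. Those below both numbered 7 with quantile normalization, 6 with median centring, 4 with bright rows only (fewer genes) and 12 to 25 when 1 array was left out. The list median was 0.051 with median centring, 0.037 with bright rows only and -0.039 to -0.0037 when 1 array was left out.

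Of 525 values of the 45 named genes under alternatives, 479 kept direction and side of the threshold, 46 in 15 genes changed sign and 0 became calls. Beyond leaving out arrays, these were, with quantile normalization, EFNA4 (-0.031), EPHB3 (0.0064), NRP2 (0.017), PLXNA4 (0.0092), ROBO3 (0.033) and ROBO4 (0.026). With median centring they were NRP2 (0.048), ROBO3 (0.027), ROBO4 (0.042), SEMA4D (0.058) and SEMA7A (0.027). With array weights they were EFNA4 (-0.022), PLXNB1 (-0.022), ROBO3 (0.025), ROBO4 (0.070) and SEMA3D (-0.23). With the replicate block they were EFNA3 (-0.0024), EFNA4 (-0.0064), ROBO3 (0.018), ROBO4 (0.14) and SEMA3D (-0.29), and with the mean of its rows NRP2 (0.059). Leaving out 1 array gave -0.032 to 0.20 for EFNA2, -0.034 to 0.11 for EFNA3, -0.13 to 0.14 for EFNA4, -0.45 to 0.017 for EFNA5, -0.49 to 0.47 for NRP2 and -0.0097 to 0.14 for PLXNA1. It gave -0.088 to 0.019 for ROBO3, -0.13 to 0.14 for ROBO4, -0.13 to 0.31 for SEMA3C, -0.56 to 0.58 for SEMA3D, -0.056 to 0.050 for SEMA4D and -0.097 to 0.015 for SEMA7A. The cause of these changes was not tested.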
